A study of Mus musculus with 2 samples.

Results

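The genes described here are 9 genes with which endothelial cells (ECs) read blood flow or set the tone of blood vessels: *Klf2*, *Klf4*, *Nos3*, *Edn1*, *Ednrb*, *Piezo1*, *Cyp1b1*, *Ptgs1* and *Ptgis*. They were taken by symbol from the 32285 genes of the count tables, and each symbol matched 1 gene. The measurements are 3′ single-cell RNA sequencing (scRNA-seq) counts of liver ECs from mice, with 1 library per condition. The MafLSEC-KO library came from mice that were tg/wt for Clec4g-iCre and fl/fl for *Maf*, the gene of the transcription factor c-Maf. Their Cre recombinase is driven by the *Clec4g* promoter, which is active in liver sinusoidal endothelial cells (LSECs). The labels name the control library WT, and the study's controls were Cre-negative littermates that carried floxed *Maf* alleles. Each library was made from the pooled livers of 3 mice, female and male mice of 3 or 6 months being used in the study, without treatment. Livers were dissociated with collagenase, and ECs were enriched with beads against CD146.

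ECs sense the drag of flowing blood through membrane channels such as Piezo1. Steady flow acts through the kinase ERK5 and MEF2 factors to switch on the transcription factors Klf2 and Klf4, which keep vessels relaxed and free of clots. Vessel tone is then set by diffusible signals: nitric oxide from the enzyme encoded by *Nos3* and prostacyclin made by the products of *Ptgs1* and *Ptgis* relax vessels, while endothelin-1 (*Edn1*) constricts them. In the liver the sinusoid has no muscle layer, and hepatic stellate cells, which wrap around it, contract in response to endothelin. The endothelin B receptor (*Ednrb*) removes endothelin-1 from the circulation and, in ECs, triggers nitric oxide release.

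As a guide to the regulatory sequence of the flow-induced transcription factors, the 250 bases before the transcription start of *Klf2* and *Klf4* are shown from RefSeq (GRCm38.p6), 5′ to 3′ on the strand of each gene. *Klf2* lies on chromosome 8, with the window at chr8:72318812-72319061 on the plus strand, and *Klf4* on chromosome 4, with the window at chr4:55532476-55532725 on the minus strand. They are shown because MEF2 factors act on *Klf2* and *Klf4*, and capitals mark a match to the MEF2 core, CTA and TAG with 4 bases of any kind between them, searched on both strands.

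Klf2: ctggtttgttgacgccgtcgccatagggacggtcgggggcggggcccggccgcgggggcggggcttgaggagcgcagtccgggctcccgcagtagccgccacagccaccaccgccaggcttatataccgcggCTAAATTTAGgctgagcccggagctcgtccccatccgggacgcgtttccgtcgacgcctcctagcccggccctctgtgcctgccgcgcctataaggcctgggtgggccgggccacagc

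Klf4: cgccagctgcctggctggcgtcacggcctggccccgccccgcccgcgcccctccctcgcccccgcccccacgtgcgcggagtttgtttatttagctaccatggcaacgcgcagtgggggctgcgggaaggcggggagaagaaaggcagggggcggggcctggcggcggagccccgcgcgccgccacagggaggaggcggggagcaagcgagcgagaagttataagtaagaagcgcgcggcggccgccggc

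This core was found 1 time in the *Klf2* window, 118 bases before the start, and in 3.20% of the 32851 windows of all genes. No match was present in the windows of the other 6 members with an entry (*Klf4*, *Edn1*, *Ednrb*, *Piezo1*, *Cyp1b1* and *Ptgs1*). The AP-1 letters TGANTCA, to which Fos and Jun proteins bind, were in 0 of these 7 windows and in 6.75% of all windows. The letters TGCTGA, a core of the sites recognised by Maf proteins, were found in the *Ednrb* window alone among the 7, and in 16.1% of all windows.

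LSECs were taken as cells of endothelial clusters without a UMI (unique molecular identifier, a tag that counts captured RNA molecules) of *Vwf*, the von Willebrand factor gene of larger vessels. This left 4101 control LSECs with a median of 8395 UMIs and 3251 MafLSEC-KO LSECs with a median of 13871 UMIs. *Maf* was at 3472 counts per 1000000 UMIs (CPM) in control and 125 CPM in MafLSEC-KO LSECs, and 7 of 9 LSEC marker genes were more than 2-fold lower in the latter. Levels are sums of UMIs over the cells of a library, with mitochondrial and ribosomal protein genes left out of the total. In such sums, fewer cells with a gene and less RNA per cell cannot be told apart. The intervals in brackets are exact 95% intervals for counting error only. Since cells of 1 library are not replicates, no difference between conditions could be tested, and every ratio below compares these 2 libraries.

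Several properties of the libraries moved with the condition. In MafLSEC-KO LSECs 12 of the 13 immediate early genes at or above 10 CPM were more than 2-fold higher, and their list sum was 3549 CPM against 1286 CPM in control, as were 5 of 6 heat shock genes and 10 of 10 cycling genes. The list sum of stellate cell and mesenchyme genes was 152 CPM against 31.8 CPM, that of lymphatic endothelium was 69.0 CPM against 7.68 CPM, and that of erythroid genes was 14.4 CPM against 1253 CPM. The endothelial clusters included some led by genes of other cells: control clusters 3 and 5 by hepatocyte or hemoglobin genes, MafLSEC-KO cluster 9 by stellate and lymphatic genes, cluster 12 by platelet and hepatocyte genes, and 4 of the 10 leading genes of cluster 2 were hemoglobin genes. The libraries shared 10 barcodes.

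The endothelin pair, the ligand *Edn1* and its receptor *Ednrb*, was higher in MafLSEC-KO than in control LSECs, as was the prostacyclin synthase gene *Ptgis*, whereas *Ptgs1* was lower. Control LSECs held 3.14 CPM of *Edn1* (2.56 to 3.81) and MafLSEC-KO LSECs 30.6 CPM (28.9 to 32.4), from 103 and 1230 UMIs, a 9.75-fold ratio (log2 3.29). *Ednrb* stood at 41.9 CPM (39.8 to 44.2) in the control and 95.8 CPM (92.8 to 98.9) in the MafLSEC-KO library, a 2.28-fold ratio (log2 1.19, 1.10 to 1.28). The counting intervals of the libraries did not overlap for either gene. With *Vwf* cells kept, which held 78.1% of the endothelial *Edn1* UMIs in control and 58.9% in MafLSEC-KO, the log2 ratio of *Edn1* was 1.93. On mm10 with GENCODE M21, *Edn1* lies at chr13:42301476-42307990 on the plus strand and *Ednrb* at chr14:103814625-103844402 on the minus strand.

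*Ptgs1* encodes cyclooxygenase-1, the first enzyme of prostanoid synthesis. Its level was 366 CPM in control LSECs (359.9 to 373) and 187 CPM in MafLSEC-KO LSECs (183 to 191), with a log2 ratio of −0.97 (−1.01 to −0.93), just inside the 2-fold limit. *Ptgis*, which turns a prostanoid precursor into prostacyclin, had 2.68 CPM in control LSECs (2.15 to 3.30) and 17.1 CPM in MafLSEC-KO LSECs (15.9 to 18.5), with a log2 ratio of 2.68 (2.36 to 3.01). Both lie on chromosome 2, *Ptgs1* at chr2:36230426-36252272 on the plus strand and *Ptgis* at chr2:167191805-167240604 on the minus strand. In these sums the genes for the first and the last step of prostacyclin synthesis thus differed between the libraries in opposite directions. Of the 88 control *Ptgis* UMIs, 58 lay in 84 cells with at least 2 UMIs of stellate and mesenchyme genes. The thinned share of LSECs with a *Ptgis* UMI could not be told from background in either library, as given below.

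The flow-induced transcription factors, the nitric oxide synthase and the mechanosensitive channel differed less. For *Klf2* the levels were 412 CPM in control (405 to 419) and 561 CPM in MafLSEC-KO LSECs (554 to 569), with a log2 ratio of 0.45. *Klf4* had 153 CPM (149 to 157) and 192 CPM (188 to 196), with 0.33. *Nos3* had 96.1 CPM (92.8 to 99.5) and 119.7 CPM (116 to 123), with 0.32. *Piezo1* was at 66.9 CPM (64.2 to 69.8) and 92.4 CPM (89.4 to 95.4), with 0.47. All 4 were higher in the MafLSEC-KO library by 1.25-fold to 1.38-fold, beyond counting error. In cells binned by their share of immediate early RNA the log2 ratio of *Klf4* lay between −0.77 and 0.01, and that of *Klf2* between −0.04 and 0.25.

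*Cyp1b1*, a cytochrome P450 gene induced by flow and by the aryl hydrocarbon receptor, was close to absent from LSECs of both libraries, at 0.274 CPM (9 UMIs) and 0.299 CPM (12 UMIs). No difference was detectable at this depth, as the interval of its log2 ratio ran from −1.25 to 1.55.

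**Figure D1:**
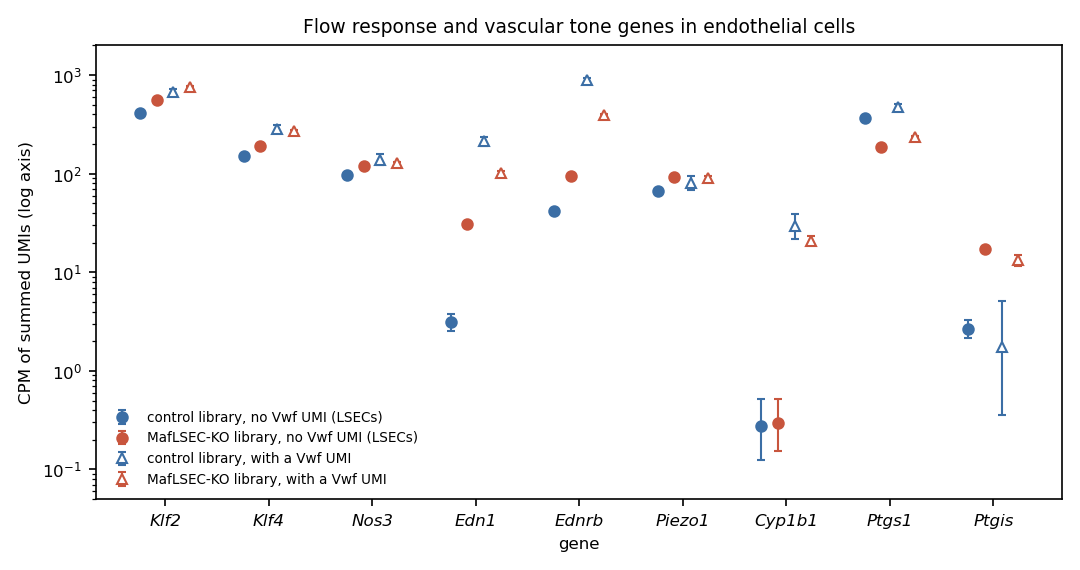
Level of each gene (CPM of summed UMIs, log axis) in LSECs without a *Vwf* UMI (filled circles) and in ECs with a *Vwf* UMI (open triangles) of the control (blue) and MafLSEC-KO (red) library, with bars for exact 95% counting intervals. *Edn1* lay at 3.14 CPM in control LSECs, below its level in the other groups, and *Cyp1b1* was near 0.3 CPM in LSECs of both libraries but above 20 CPM in cells with a *Vwf* UMI.

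In all, 3 members (*Edn1*, *Ednrb* and *Ptgis*) were more than 2-fold higher in MafLSEC-KO LSECs, beside 10.5% of the 9311 genes at or above 10 CPM in either library, and 0 members were more than 2-fold lower, beside 4.55%, so that 15.1% of genes passed in either direction. At a limit of 1.5-fold, 3 members were higher, beside 21.7% of genes, and 1 (*Ptgs1*) was lower, beside 10.0%. *Edn1* and *Ptgis* reached 10 CPM in the MafLSEC-KO library alone, and *Cyp1b1* in neither. The median log2 ratio of all 9311 genes was 0.14. The other 3 scalings tried moved all ratios down by 0.17 to 0.19, which put *Ptgs1* past the 2-fold limit and left *Klf2*, *Klf4*, *Nos3* and *Piezo1* above 0.12.

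The share of LSECs with a UMI followed the levels once the depth of the cells was made equal by thinning each cell at random to 2700 UMIs. Thinned, 0.541% of control LSECs (0.331 to 0.835) and 5.16% of MafLSEC-KO LSECs had a UMI of *Edn1*, against 1.10% and 16.5% before thinning. The highest *Edn1* count in any LSEC was 10 UMIs in the control and 15 in the MafLSEC-KO library. This share thus differed in the same direction as the level. Thinned, *Ednrb* was found in 4.09% and 10.2%, *Ptgis* in 0.271% and 2.35%, and *Ptgs1* in 50.2% and 30.3% of LSECs. *Klf2* was found in 54.9% and 52.7%, *Klf4* in 24.2% and 26.1%, *Nos3* in 20.5% and 21.8%, and *Piezo1* in 14.6% and 17.8%. Before thinning, these 4 were found in more MafLSEC-KO than control LSECs, for instance *Nos3* in 61.1% against 45.9%. For *Klf2* the thinned share and the CPM differed in opposite directions, and no order is read from its share. Thinning left out 406 control and 187 MafLSEC-KO LSECs.

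Lymphocyte-like cells of the same libraries, which should lack most of these genes, gave the background. At 2700 UMIs, *Edn1* was found in 0 of 69 control and 0 of 95 MafLSEC-KO lymphocyte-like cells, which allows shares of up to 4.35% and 3.16%, and *Ptgis* in 0 and 1 of these cells. *Ptgs1* was found in 15.9% and 7.37%, *Klf4* in 14.5% and 6.32%, *Ednrb* in 0 and 2 cells, *Nos3* in 2.90% and 3.16%, and *Piezo1* in 7.25% and 5.26%. Control B cell-like cells also carried *Maf* at 2325 CPM and *Clec4g* at 2055 CPM, so LSEC RNA was present in them. In MafLSEC-KO B cell-like cells *Clec4g* was at 351 CPM, so the backgrounds of the libraries were not alike. The LSEC shares of *Ptgs1* and *Nos3* lay above the intervals of these backgrounds in both libraries, and those of *Edn1*, *Ednrb*, *Klf4* and *Piezo1* in the MafLSEC-KO library. The control shares of *Edn1*, *Ednrb*, *Klf4* and *Piezo1*, and the *Ptgis* shares of both, could not be told from background. The lymphocyte-like cells were few, and LSEC RNA in them raises the background of any gene that LSECs express. Neither absence from control LSECs nor a difference between the libraries is therefore read from this comparison. *Klf2* was found in 71.0% and 72.6% of lymphocyte-like cells, above LSECs, and *Klf2* is a gene that resting lymphocytes themselves use.

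*Edn1* and *Ednrb* had their control UMIs in few cells. In each library 2 clusters are set apart here by their leading genes: control cluster 4 and MafLSEC-KO cluster 8, with *Rspo3*, *Bmp4*, *Selp* and *Wnt9b* (the *Rspo3* clusters), and control cluster 7 and MafLSEC-KO cluster 6, with *Nrg1*, *Atp13a3*, *Sdc1*, *Jag1* and *Adgrg6* (the *Nrg1* clusters). *Rspo3* and *Wnt9b* are also markers of pericentral and *Adgrg6* of periportal LSECs. Control cluster 4 carried the LSEC genes *Maf*, *Stab2* and *Clec4g* at 2957, 1527 and 2335 CPM, so these clusters are given by gene and not as a vessel type. They held 17.5% of control ECs but 91.9% (89.1 to 94.2) of their *Edn1* UMIs and 92.3% (91.3 to 93.3) of their *Ednrb* UMIs. In MafLSEC-KO, they held 12.5% of ECs, 42.1% of the *Edn1* UMIs and 54.3% of the *Ednrb* UMIs. As the clusters were made from all variable genes, with *Ednrb* among the leading genes of control cluster 7 and *Cyp1b1* among those of MafLSEC-KO cluster 8, these shares are a description.

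**Figure D2:**
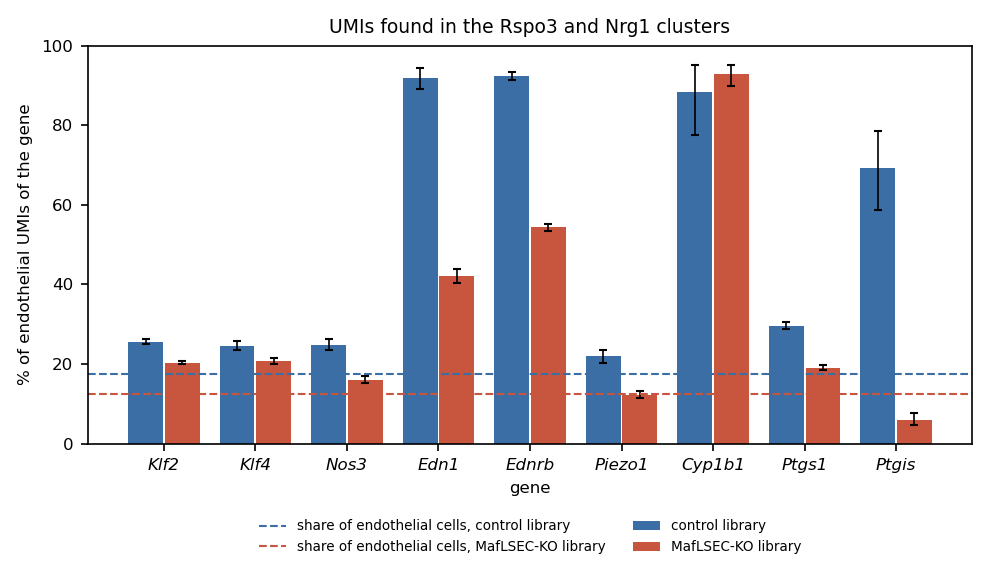
Share of the endothelial UMIs of each gene (%) that lay in the *Rspo3* and *Nrg1* clusters, in the control (blue) and MafLSEC-KO (red) library, with exact 95% counting intervals; dashed lines mark the share of ECs in these clusters, 17.5% and 12.5%. *Edn1* and *Ednrb* stood above 90% in control and between 40% and 60% in MafLSEC-KO, and *Cyp1b1* near 90% in both.

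LSECs outside these clusters are given as a description, since leaving the clusters out removed 15.1% of control but 4.37% of MafLSEC-KO LSECs, and with them 84.0% of the control LSEC UMIs of *Ednrb*. The wider gap for such genes follows from this choice. There *Edn1* had 1.35 CPM in control and 29.8 CPM in MafLSEC-KO LSECs, a log2 ratio of 4.47, and *Ednrb* had 8.05 CPM and 74.4 CPM, with 3.21. *Ptgis* had 0.983 CPM and 17.5 CPM, with 4.15. *Ptgs1* had 324 CPM and 186 CPM, with −0.80. *Klf2*, *Klf4*, *Nos3* and *Piezo1* kept log2 ratios between 0.32 and 0.48 in these cells. Over all ECs of the other MafLSEC-KO clusters, 6.16% to 37.0% of which held a *Vwf* UMI, *Edn1* was lowest in cluster 7, whose cells kept *Maf* (9.04 CPM), and highest in cluster 9 (88.1 CPM), whereas the other control clusters, with *Vwf* UMIs in 1.58% of cells or fewer, held 2.63 CPM or less.

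*Ptgis* rested on few cells in the control library. Of its 88 UMIs in control LSECs, 58 came from 84 cells with at least 2 UMIs of the stellate and mesenchyme list, and 34 were counted in a single cell. Without such cells *Ptgis* was at 0.939 CPM in control and 14.6 CPM in MafLSEC-KO LSECs, a log2 ratio of 3.96. In the MafLSEC-KO library cells with stellate RNA held 17.9% of the *Ptgis* UMIs, and cluster 9, led by *Dcn* and *Ccl21a*, had 155 CPM of *Ptgis* against 1.72 to 20.4 CPM in the other MafLSEC-KO endothelial clusters. The part of stellate RNA in the remaining *Ptgis* level was not tested.

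Along the sinusoid from portal tract to central vein, oxygen, flow pattern and endothelial gene expression differ, and LSECs near the central vein are marked by *Wnt2*, *Rspo3* and *Kit*. To place cells on this axis, LSECs of each library were ordered by the mean scaled level of 6 periportal markers minus that of 5 pericentral markers and divided into 4 zones of equal size, from pericentral to periportal. The 5 pericentral markers were all more than 2-fold lower in MafLSEC-KO than in control LSECs, so the zones of the 2 libraries need not be the same places, and each library was read on its own.

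*Ptgs1* was graded towards the central vein. From the pericentral to the periportal zone it was at 606, 390, 283 and 187 CPM in control LSECs and at 245, 192, 168 and 140 CPM in MafLSEC-KO LSECs. The log2 ratio of the periportal to the pericentral zone was −1.70 (−1.78 to −1.61) in control and −0.81 (−0.91 to −0.70) in MafLSEC-KO LSECs. In each library the level was thus lower in each zone than in the one before it.

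*Ednrb* was highest in the periportal zone of control LSECs. It was at 20.6, 11.0, 12.5 and 123 CPM from the pericentral to the periportal zone, a log2 ratio of 2.57 (2.34 to 2.82). In MafLSEC-KO LSECs it was at 92.6, 63.0, 76.9 and 164 CPM, with 0.82 (0.70 to 0.95). The periportal zone had the highest level in each library. In control this level rested on few cells, as 1156 of the 1377 *Ednrb* UMIs of LSECs lay in the 618 LSECs of the *Rspo3* and *Nrg1* clusters. The other LSECs were at 8.05 CPM. *Adgrg6*, a periportal marker that sets the axis, is a leading gene of control cluster 7 together with *Ednrb*. It was at 0.364, 1.35, 2.59 and 105 CPM over the control zones. Every set of zone markers tried in control included it, so the periportal *Ednrb* level is a description.

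*Edn1* was low in the 2 middle zones of control LSECs, at 0.489 and 1.23 CPM, and was at 4.85 CPM in the pericentral and 5.91 CPM in the periportal zone. In MafLSEC-KO LSECs it was at 25.1, 28.1, 33.2 and 36.9 CPM. *Ptgis* in MafLSEC-KO LSECs was at 25.8, 23.2, 12.3 and 5.69 CPM, with −2.18 (−2.65 to −1.74). The pericentral MafLSEC-KO zone also carried the stellate list at 528 CPM and the lymphatic list at 238 CPM, and without cells with at least 2 stellate UMIs the *Ptgis* ratio was −1.97. The part of stellate and lymphatic RNA in this slope was not tested. Control *Ptgis* had between 6 and 43 UMIs per zone, too few to order the zones.

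Of the remaining members, *Piezo1* was nearly level along the axis. *Nos3*, *Klf2* and *Klf4* stayed within 2-fold, though not always within counting error. *Piezo1* was at 65.0 to 69.1 CPM in the 4 control zones and 91.0 to 95.6 CPM in the MafLSEC-KO zones, with neighbouring intervals overlapping in each library. *Nos3* was at 106 CPM (99.3 to 113) in the pericentral and 87.3 CPM (81.1 to 93.9) in the periportal zone of control LSECs. In MafLSEC-KO LSECs it was at 124 and 126 CPM, with overlapping intervals. *Klf2* lay between 390.0 and 440.2 CPM in control zones. In MafLSEC-KO zones it lay between 489.5 CPM (477 to 503) and 671 CPM (654 to 689). The highest level was periportal in each library, but in control its interval overlapped that of the pericentral zone (log2 ratio 0.06, −0.01 to 0.13). *Klf4* was at 172, 151, 147 and 141 CPM in control and at 198, 175, 184 and 217 CPM in MafLSEC-KO zones, and the directions of the *Klf4* slopes, and of the MafLSEC-KO *Klf2* slope (−0.34 with landmark genes), depended on the markers used for the axis. Of the members at or above 10 CPM, *Ednrb* alone was more than 2-fold higher and *Ptgs1* alone more than 2-fold lower in the periportal zone of control LSECs, beside 1.47% and 1.89% of 8777 genes. In MafLSEC-KO LSECs 0 members were higher, beside 1.15% of 9351 genes, and *Ptgis* alone was lower, beside 3.81%. Of the pericentral and periportal zones, *Ptgis* reached 10 CPM in the pericentral one alone.

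**Figure D3:**
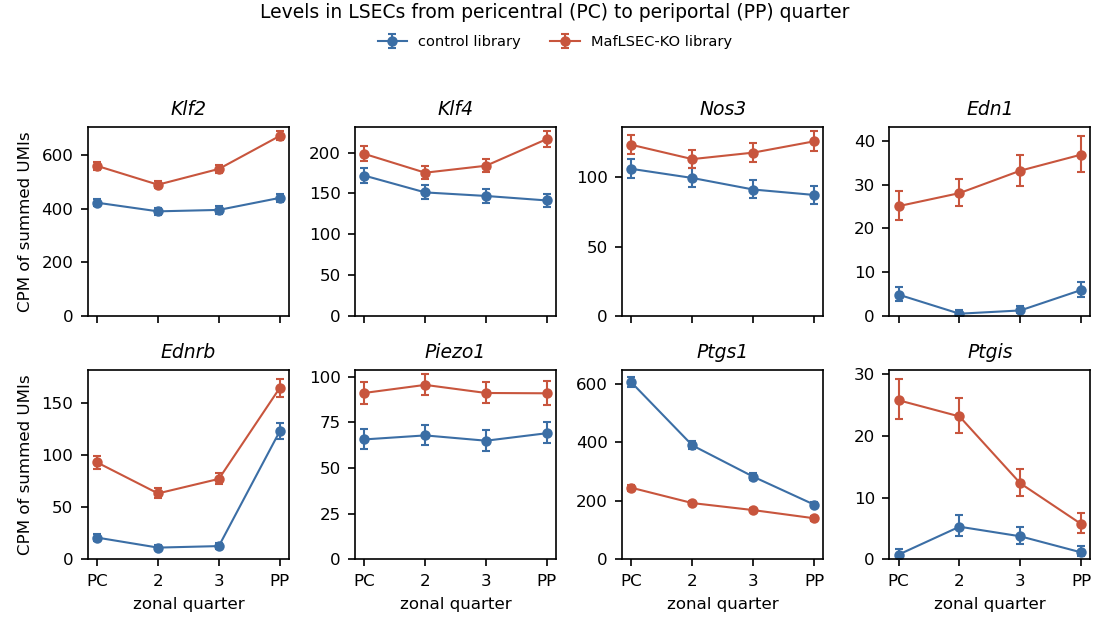
Level of 8 genes (CPM of summed UMIs, linear axis from 0) in 4 zones of LSECs from pericentral (PC) to periportal (PP), in the control (blue) and MafLSEC-KO (red) library, with exact 95% counting intervals. *Ptgs1* declined from 606 to 187 CPM in control, *Ednrb* stood at 123 CPM in the periportal control zone, and *Piezo1* was level in both libraries.

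A UMI of *Vwf*, which marks ECs of arteries, veins and other larger vessels, was present in 3.78% of control ECs (161 of 4262) and 26.7% of MafLSEC-KO ECs (1182 of 4433). Thinned to 2700 UMIs the shares were 2.10% and 13.3%. In 48.4% and 38.3% of these cells it was 1 UMI, and MafLSEC-KO B cell-like and T and NK cell-like cells, which should lack *Vwf*, had a UMI in 7.69% and 8.33%. The part of such background in the shares of ECs was not tested. In the control library *Edn1* was at 213 CPM (192 to 236) in cells with and 3.14 CPM in cells without a *Vwf* UMI, a log2 ratio of 6.09. *Ednrb* was at 891 CPM (847 to 937) against 41.9 CPM, with 4.41, and *Cyp1b1* at 29.5 CPM against 0.274 CPM, with 6.75. These 3 members were more than 2-fold higher in *Vwf* cells of the control library, beside 4.14% of 9005 genes, and 0 were lower, beside 1.79%. Of these, *Edn1* and *Cyp1b1* reached 10 CPM in the cells with a *Vwf* UMI alone, so they entered the count through that group. *Ptgs1* (0.37), *Nos3* (0.53), *Klf2* (0.72), *Klf4* (0.89) and *Piezo1* (0.27) had smaller log2 ratios.

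In the MafLSEC-KO library the same 3 members were more than 2-fold higher in *Vwf* cells, beside 1.46% of 9202 genes, and 0 were lower, beside 0.239%. Of these, *Cyp1b1* reached 10 CPM in the cells with a *Vwf* UMI alone. *Cyp1b1* was at 20.9 CPM with and 0.299 CPM without a *Vwf* UMI, a log2 ratio of 6.13, and 96.8% of its endothelial UMIs lay in *Vwf* cells. The log2 ratio was 1.73 for *Edn1* (101 CPM against 30.6 CPM) and 2.03 for *Ednrb* (391 CPM against 95.8 CPM), below those of the control library. *Cyp1b1* UMIs were thus found mostly in *Vwf* cells of both libraries.

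Compared directly between the libraries, *Vwf* cells gave another order of the conditions than LSECs did. *Edn1* was lower in MafLSEC-KO than in control *Vwf* cells, by a log2 ratio of −1.07 (−1.24 to −0.91), *Ednrb* by −1.19 (−1.27 to −1.11) and *Ptgs1* by −1.01 (−1.12 to −0.90), 3 members more than 2-fold lower beside 4.11% of 9370 genes. *Ptgis*, at or above 10 CPM in the MafLSEC-KO *Vwf* cells alone, was higher (2.93), from 3 control UMIs, beside 7.25% of genes. The *Vwf* cells were not alike in make-up: their list sum of large vessel genes was 1543 CPM in control and 884 CPM in MafLSEC-KO, and 129 of 161 control but 412 of 1182 MafLSEC-KO cells lay in the *Rspo3* and *Nrg1* clusters. Within those clusters the log2 ratios were −0.28 for *Edn1*, −0.31 for *Ednrb* and −0.50 for *Ptgs1*. Outside them *Edn1* was at 48.4 CPM in MafLSEC-KO *Vwf* cells and had 1 UMI in 32 control cells, and *Ednrb* was at 165 CPM against 3 UMIs.

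These clusters can be set side by side. In the *Rspo3* clusters, *Cyp1b1* was at 11.3 CPM in control and 151 CPM in MafLSEC-KO, *Edn1* at 52.9 and 374 CPM, *Ednrb* at 59.9 and 851 CPM, and *Ptgs1* at 743 and 739 CPM. *Vwf* was found in 12.4% and 83.6% of their cells, so their make-up differed. In the *Nrg1* clusters, *Ednrb* was at 1199 and 821 CPM, *Edn1* at 91.6 and 85.0 CPM, *Ptgs1* at 155 and 110 CPM, and *Cyp1b1* had 0 UMIs in control and 0.215 CPM in MafLSEC-KO. In each library *Cyp1b1* was thus seen in the *Rspo3* cluster, *Rspo3* being a gene of central vein endothelium, and hardly in the *Nrg1* cluster.

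*Klf2* and *Klf4* can also be induced quickly when cells are handled, and immediate early genes were higher in the MafLSEC-KO library. LSECs of both libraries were therefore grouped into 4 bins by the share of their UMIs from 16 immediate early genes, none of which is a member. The lowest bin held 1442 control and 396 MafLSEC-KO LSECs, and the highest 501 and 1337. The highest bin spanned shares from 0.232% to 2.96%, so the share was matched by range only. Its median depth was 6761 UMIs in control and 15886 UMIs in MafLSEC-KO LSECs.

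*Klf4* differed more along this share than between the libraries. From the lowest to the highest bin it was at 69.9, 112, 192 and 438 CPM in control and at 67.0, 113, 159 and 257 CPM in MafLSEC-KO LSECs. The log2 ratio of MafLSEC-KO to control was −0.06, 0.01, −0.28 and −0.77. Within these bins *Klf4* was thus lower in the MafLSEC-KO library in the upper ones and within counting error in the others. With bins of equal size set within each library, which do not match the share, the ratios were 0.50, 0.64, 0.62 and −0.13. *Klf2* was at 323 to 671 CPM in control and 381 to 652 CPM in MafLSEC-KO LSECs, with log2 ratios of 0.24, 0.25, 0.16 and −0.04. Whether the immediate early share shifts these levels was not tested.

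*Edn1*, *Ptgs1*, *Nos3* and *Piezo1* kept their difference between the libraries in each bin. The log2 ratios were 4.24, 2.78, 2.60 and 2.85 for *Edn1*, −0.97, −0.97, −0.95 and −0.90 for *Ptgs1*, 0.32, 0.22, 0.25 and 0.45 for *Nos3*, and 0.57, 0.31, 0.46 and 0.73 for *Piezo1*. *Ednrb* was higher in MafLSEC-KO LSECs of each bin but unevenly, with 1.93, 0.65, 1.54 and 0.36, and *Ptgis* had 2.95, 4.27, 4.79 and 0.49. Control *Ptgis* had 35, 10, 5 and 38 UMIs in these bins, and 34 of those in the highest bin came from a single cell. The *Ptgis* ratio of that bin thus rests on this cell. From the lowest to the highest bin, 3, 2, 3 and 1 members were more than 2-fold higher in MafLSEC-KO LSECs, beside 10.5%, 10.8%, 11.5% and 10.1% of genes. In each bin *Edn1* reached 10 CPM in the MafLSEC-KO library alone, as did *Ptgis* in all bins but the highest. In each bin 0 members were more than 2-fold lower, beside 4.3%, 4.12%, 5.22% and 5.24% of genes.

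**Figure D4:**
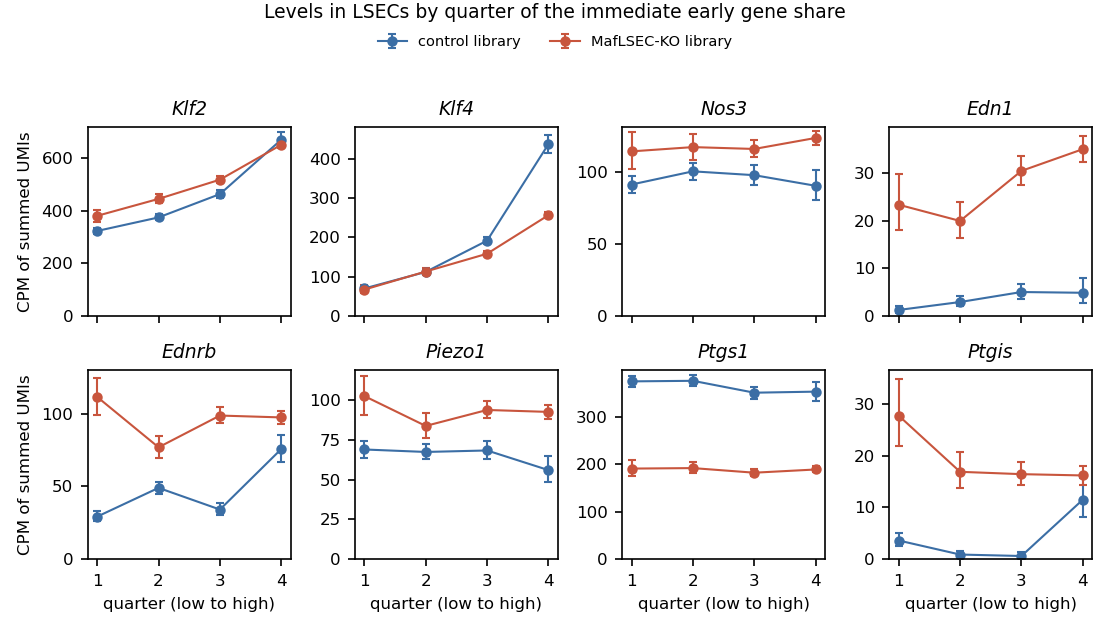
Level of 8 genes (CPM of summed UMIs, linear axis from 0) in LSECs grouped into 4 bins by the share of immediate early gene UMIs, from low to high, in the control (blue) and MafLSEC-KO (red) library, with exact 95% counting intervals. *Klf4* reached 438 CPM in the highest control bin and 257 CPM in the highest MafLSEC-KO bin, while *Ptgs1* lay below 200 CPM in MafLSEC-KO and at about 350 CPM or more in control throughout.

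At single-cell level *Klf2* was found more often in LSECs with than in those without a *Klf4* UMI. In cells thinned to 2700 UMIs, *Klf2* was present in 65.6% of control LSECs with and 51.5% of those without a *Klf4* UMI, and in 71.6% and 46.0% of MafLSEC-KO LSECs. Both were found in 15.9% of control and 18.7% of MafLSEC-KO LSECs. *Klf2* without *Klf4* was found in 39.1% and 34.0%, and *Klf4* without *Klf2* in 8.31% and 7.41%. Both genes also rose along the immediate early share, and the part of this share in the overlap was not tested.

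Some cells of the MafLSEC-KO library kept *Maf*, which allows a comparison within 1 library and digest. LSECs with at least 5 *Maf* UMIs (213 cells) were set against those with 0 (2556 cells). *Edn1* was at 9.73 CPM (6.10 to 14.7) where *Maf* was kept and 31.5 CPM (29.5 to 33.6) where it was at 0, a log2 ratio of −1.70 (−2.38 to −1.09), and it alone among the members was more than 2-fold lower, beside 5.33% of 9438 genes, while 0 were more than 2-fold higher, beside 5.1%. At the limit of 5 UMIs, *Edn1* reached 10 CPM in the cells with 0 *Maf* UMIs alone. With at least 2 *Maf* UMIs *Edn1* was at −0.83, and 0 members passed. *Ptgs1* was at 287 CPM (265 to 310) and 177 CPM (173 to 182), a log2 ratio of 0.69 (0.57 to 0.81). *Ednrb* was at 80.5 CPM and 99.3 CPM, with −0.30 (−0.53 to −0.09). By these sums, the 3 genes were nearer to their control levels where *Maf* was kept. There *Edn1* had 22 and *Ednrb* 182 UMIs. Over the ECs of cluster 7, whose cells kept *Maf*, the 70 *Ednrb* UMIs lay in 10 cells, and counting intervals do not cover such clumping.

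The other members did not follow *Maf* in this way. *Ptgis* was at 13.3 CPM where *Maf* was kept and 15.5 CPM where it was at 0, with overlapping intervals, but at 24.2 CPM (19.9 to 29.3) in cells with at least 2 *Maf* UMIs, a log2 ratio of 0.65 (0.33 to 0.95). *Klf2* was at 633 and 553 CPM, *Klf4* at 225 and 188 CPM, and *Nos3* at 137 and 119 CPM, each farther from control where *Maf* was kept. With at least 2 *Maf* UMIs the log2 ratios to cells with 0 were smaller, at 0.07 for *Klf2*, 0.12 for *Klf4* and 0.07 for *Nos3* (−0.06 to 0.20). *Piezo1* was at 87.5 and 92.2 CPM with overlapping intervals. Cells that kept *Maf* also differed in other ways: 18.8% against 37.6% were cycling, their immediate early sum was 2167 against 3586 CPM, and their median depth was 10164 against 13614 UMIs. Nor were they spread evenly over the zones. From the pericentral to the periportal MafLSEC-KO zone, 15.7%, 7.26%, 8.36% and 11.6% of LSECs had at least 2 *Maf* UMIs. *Edn1*, *Ptgs1* and *Ednrb* differed along these zones. The part of these differences in the ratios was not tested.

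Genes around the members in their pathways were taken from 8 lists and are named where they were more than 2-fold apart. Each count below stands beside 10.5% of all genes higher and 4.55% lower, and from lists this short nothing particular to a list is read. Among 14 measured mechanosensor and ion channel genes, 2 were more than 2-fold higher in MafLSEC-KO LSECs, the channel genes *Piezo2* (5.18 to 40.7 CPM from control to MafLSEC-KO, log2 ratio 2.97) and *Kcnj2* (1.30). The 2 lower ones were *P2rx4*, an ATP-gated channel gene (94.0 to 21.4 CPM, −2.13), and *Flt4*, the gene of VEGF receptor 3 (−1.12). The genes for the junctional mechanosensors *Pecam1* (0.12) and *Cdh5* (0.10) hardly differed. Of the 10 genes of the ERK5 and CCM routes that control *Klf2* and *Klf4*, 0 passed the limit, with log2 ratios between −0.37 and 0.49.

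Of 7 measured targets of Klf2 and Klf4, 2 genes of quiescent endothelium were lower, *Thbd*, the gene of the anticoagulant thrombomodulin (111 to 30.2 CPM, −1.88), and the water channel gene *Aqp1* (3281 to 1226 CPM, −1.42). The adhesion molecule gene *Vcam1* was higher (110 to 248 CPM, 1.18), beside the member *Edn1*. *Nos3*, *Hmox1* and *Angpt2* lay between 0.03 and 0.32. Klf2 is known to raise *Thbd* and *Nos3* and to lower *Vcam1* and *Edn1*.

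The nitric oxide list had 5 of 16 genes more than 2-fold higher and 0 lower. Among them were *Slc7a1*, an arginine transporter gene (8.56 to 42.2 CPM, 2.30), *Gucy1b1*, a subunit of the nitric oxide receptor (1.71), *Cav1*, an inhibitor of the synthase (43.9 to 114 CPM, 1.37), and *Hsp90aa1* (1.23). *Hsp90aa1* is itself a heat shock gene. In the endothelin list *Edn1* and *Ednrb* were the 2 of 4 measured genes that passed. *Ece1*, which cuts the precursor of endothelin-1, was at 425 CPM in control and 328 CPM in MafLSEC-KO LSECs (−0.37), and the receptor gene *Ednra* had 3 and 49 UMIs.

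In the prostanoid list the genes for uptake and breakdown stood out. *Slco2a1*, the prostaglandin transporter gene, was at 348 CPM in control and 25.5 CPM in MafLSEC-KO LSECs (−3.77). *Hpgd*, whose enzyme inactivates prostaglandins, was at 342 and 45.4 CPM (−2.91). These were the 2 lower of 8 measured genes, and *Ptgis* was the 1 higher. *Ptgs1* (−0.97) did not pass, and the thromboxane receptor gene *Tbxa2r* (0.04) and *Ptges3* (0.29) were near equal. *Slco2a1* was among the leading genes of MafLSEC-KO cluster 7, whose cells kept *Maf*.

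Of 4 measured genes of the aryl hydrocarbon receptor list, the receptor gene *Ahr* alone passed the limit (149 to 31.0 CPM, −2.27). Of 8 measured genes for other vasoactive ligands and receptors, 3 were lower: *Calcrl*, the receptor for adrenomedullin (717 to 245 CPM, −1.55), *Npr1*, the receptor for atrial natriuretic peptide (456 to 159 CPM, −1.52), and *Ramp3*, a partner of *Calcrl* (−1.08). The ligand gene *Adm* was higher (35.2 to 113 CPM, 1.68). *Aplnr*, the apelin receptor gene, had 2 UMIs in control and 1945 UMIs (48.4 CPM) in MafLSEC-KO LSECs, with a log2 ratio of 9.63 (7.78 to 12.68). The median log2 ratios of the 8 lists ran from −0.32 to 0.62, against 0.14 for all genes.

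**Figure D5:**
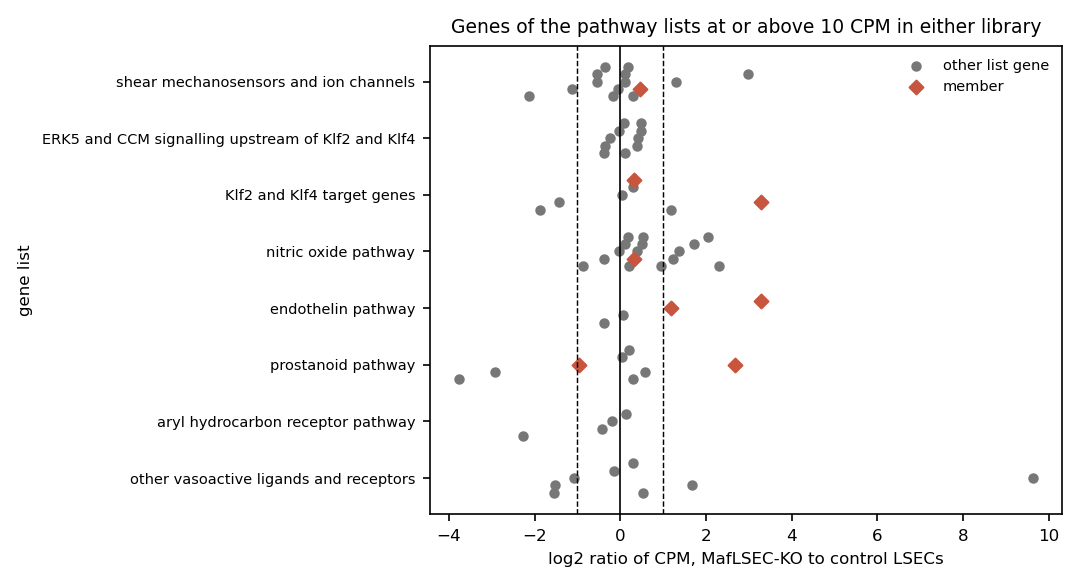
Log2 ratio of CPM, MafLSEC-KO to control LSECs, for each gene at or above 10 CPM in either library in 8 gene lists (grey circles) and for the members in them (red diamonds), with dashed lines at 2-fold. *Aplnr* lies farthest to the right at 9.63 from 2 control UMIs, *Slco2a1* (−3.77) and *Hpgd* (−2.91) lie farthest to the left, and the ERK5 and CCM list stays within the dashed lines.

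Genes with a pattern most like each member were sought over 10 endothelial groups (the 4 zones and the *Vwf* cells of each library) among 4966 genes at or above 50 CPM. The closest were *Plaat3* for *Klf4* (Pearson's r = 0.967 of log2(CPM + 1)), *Lims2* for *Nos3* (0.973), *2200002D01Rik* for *Edn1* (0.982), *Ddit4* for *Ednrb* (0.981), *Utp3* for *Piezo1* (0.997) and *Sema3d* for *Ptgs1* (0.967). The next in order were *Il2rg* and *Arl6ip5* for *Klf4*, *Rtn4* and *Cdc40* for *Nos3*, *Tspan13* and *Arl6ip5* for *Edn1*, *Mgst1* and *Anapc16* for *Ednrb*, *Timm10b* and *Dpm2* for *Piezo1*, and *Dhrs7* and *Cgnl1* for *Ptgs1*. For *Klf2*, *Api5* (0.980) and *Klf6* (0.974) were among the 3 closest. The groups share libraries, so these values are a description.

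Outside ECs, some members were found in other cells of the same libraries. *Ptgs1* was at 438 CPM in control and 600 CPM in MafLSEC-KO Kupffer cell-like cells, above LSECs of the same library, and there the MafLSEC-KO level was the higher. *Ptgis* was at 24.4 and 22.5 CPM in these cells. This was above LSECs in control, whereas the MafLSEC-KO interval (16.8 to 29.5) overlapped that of MafLSEC-KO LSECs. *Klf2* was at 2754 CPM in control and 1079 CPM in MafLSEC-KO neutrophil and monocyte-like cells. *Nos3* was at 17.8 and 18.2 CPM in Kupffer cell-like cells, where *Clec4g* was at 934 and 205 CPM, so LSEC RNA was present in them.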

How the data were processed

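The deposited files hold raw UMI counts, whole numbers for each gene in each barcode, which the authors made with Cell Ranger (6.0.2 in the submitters' notes) on mm10. The ambient RNA subtraction in their methods is not part of these files and was not repeated. After a minimum of 1500 UMIs and 750 genes, 4961 control and 5423 MafLSEC-KO barcodes remained. Clustering used Seurat 5.3.0 in R 4.3.3, library by library (2000 variable genes, 16 and 20 principal components, resolution 0.3). Scrublet (scanpy 1.11.5) marked 0 doublets at its own limit, so top-scoring cells were dropped at the expected rate (4.53% and 5.67%). Clusters counted as endothelial where 50% of cells or more held *Pecam1* and 7 or more of 14 endothelial genes, and where no gene marking other cells passed 50%. LSECs held 1512 to 53852 UMIs in control and 1506 to 103948 UMIs in MafLSEC-KO.

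UMIs were summed per group of cells and given as CPM outside mitochondrial and ribosomal protein genes. Intervals (scipy 1.17.1) are exact, Poisson for CPM, conditional binomial for ratios and Clopper-Pearson for shares. The limit given for a count of 0 is 3 counts of the total. Differences between mice are not covered by these intervals. With 1 library per group no test was run. Ratios and zones were tried on simulated data with Poisson counts, the model that the intervals assume. Clumping of UMIs in single cells was not simulated, so coverage under clumping is not known. The zones were simulated from control levels alone, so the lower pericentral markers of MafLSEC-KO LSECs were not covered. Members, lists and limits were chosen with earlier results of these data known. Genes named are the members, list genes at or above 10 CPM in either library and more than 2-fold apart (up to 6 in each direction), and the 3 genes most like each member. Some genes that meet this rule are not reported here. The choice of the *Rspo3* and *Nrg1* clusters, the settings that leave clusters out, and list genes or cell types named without passing the limit were chosen after values were seen. Promoter windows are from RefSeq, with 7 of 9 members matched. TMM factors came from edgeR 4.0.16. Alternatives covered cell choice, scaling, thinning, zone markers and limits.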

Additional observations from a re-analysis of the deposited data

Results flagged for a closer look

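*Klf4* had slopes of opposite sign along the sinusoid in the 2 libraries. The log2 ratio of the periportal to the pericentral zone was −0.28 in control and 0.13 in MafLSEC-KO LSECs, a difference of 0.41, and each counting interval left out 0. The difference was not tested, since there is 1 library per condition. With landmark genes as zone markers, the ratio was 0.07 in control and −0.45 in MafLSEC-KO LSECs, so the signs of both slopes depended on the markers.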

How the results depend on the processing

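No paired analysis was possible because each condition has 1 library and no difference came from a test, and no replicate could be left out. The directions of all members but *Cyp1b1* between MafLSEC-KO and control LSECs were kept under 15 alternatives of cell choice, scaling and depth. They were not kept in cells binned by immediate early RNA over both libraries, where *Klf4* was at −0.06, −0.28 and −0.77 in 3 of 4 bins and *Klf2* at −0.04 in the highest. The log2 ratios ran from 0.26 to 0.55 for *Klf2*, 0.14 to 0.43 for *Klf4*, 0.13 to 0.40 for *Nos3*, 1.93 to 4.47 for *Edn1*, 1.0 to 3.21 for *Ednrb*, 0.28 to 0.49 for *Piezo1*, −1.16 to −0.80 for *Ptgs1* and 2.30 to 4.15 for *Ptgis*. The number of members more than 2-fold lower was 1 (*Ptgs1*) in place of 0 with scaling to all UMIs, with median-of-ratios or TMM scaling, at a limit of 1.5-fold (beside 10.0% of genes) and without the clusters led by genes of other cells. Without a filter on low levels, 38.3% of genes were more than 2-fold apart in place of 15.1%. Under all 3 other scalings, 1 more gene was lower in the nitric oxide and prostanoid lists and among periportal and LSEC markers (8 of 9), and 4 heat shock genes, 1 large vessel gene and 2 neutrophil and monocyte genes were higher in place of 5, 2 and 4. *Vcam1* left the higher targets with scaling to all UMIs.

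Along the sinusoid, landmark genes reversed *Klf4* in control (0.073) and in MafLSEC-KO (−0.45) and *Klf2* in MafLSEC-KO (−0.34), and gave 2 members lower in place of 1 in MafLSEC-KO. *Cdh13* and *Wnt2* alone as pericentral markers reversed *Klf4* in MafLSEC-KO (−0.085). For cells with a *Vwf* UMI against those without, *Piezo1* in control became −0.11 after thinning, and 1 member (*Ptgis*) was lower in MafLSEC-KO with at least 2 *Vwf* UMIs or after thinning, in place of 0. With at least 2 *Maf* UMIs in place of 5, 0 members were more than 2-fold lower and *Edn1* was at −0.83.

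For *Vwf* cells of MafLSEC-KO against control (settings chosen after seeing the data), 0 members were higher in place of 1 with at least 2 *Vwf* UMIs. With a UMI of *Bmp4*, *Gja5*, *Fbln2*, *Eln* or *Selp*, 0 were lower in place of 3, and *Cyp1b1* was at 0.23. In the *Rspo3* and *Nrg1* clusters, 0 were higher and 0 lower, and *Cyp1b1* was at 0.89. Outside those clusters *Edn1* was at 4.15 and *Ednrb* at 4.34, with 4 members higher and 1 lower, from 32 control cells. With bins of the immediate early share set within each library, 1 member (*Ptgs1*) was lower in bin 2, 3 were higher in bin 4 in place of 1, and *Klf4* was at 0.62 in bin 3. The cause of these shifts was not tested.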
